A study of Homo sapiens with 6 samples.

Results

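The replacement histone variants studied here are the products of 10 genes, listed by symbol as one family of histones: the linker histones H1F0 and H1FX, the H2A variants H2AFX, H2AFZ, H2AFV, H2AFY and H2AFY2, and the H3 variants H3F3A, H3F3B and CENPA. They are 10 of the 23710 gene symbols counted in 6 RNA sequencing libraries of K562, an established human line from a chronic myelogenous leukaemia. The 3 control libraries came from cells given an equal amount of the solvent DMSO alone for 24 h. The 3 treated libraries came from cells that received 3FM-dC at 20 µM and THU at 2 mM, both in DMSO, for 24 h, so that any effect of 3FM-dC and any effect of THU cannot be told apart. All cells were between passages 13 and 16 and grew with 10% serum. The study is titled as one on an activator of TET2, an enzyme that oxidises methylated cytosine in DNA, and its design asked how 3FM-dC alters gene expression. The labels do not state whether replicates were grown as separate cultures, so p-values reflect the spread among these libraries alone, and that spread may be technical.

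Most histone protein is made in S phase from the clustered replication-dependent genes, whose transcripts end in a conserved stem-loop in place of a poly-A tail. Replacement variants are encoded by single genes outside those clusters, are mostly transcribed into polyadenylated messages through the whole cell cycle, and are put into chromatin independently of DNA replication by dedicated chaperones. H3.3 marks active genes and some repeats, H2A.Z sits at promoters, macroH2A is enriched in silent chromatin, H2A.X is phosphorylated beside DNA breaks, CENP-A defines the centromere, and H1.0 is the linker histone known to build up in differentiating cells.

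Counts assigned to genes ranged from 18408826 to 22750278 per library, and 3 counts correspond to a level of 0.132 to 0.163 CPM (counts per mega-read of the library) before scaling. CPM values below use library sizes scaled by TMM, a method that assumes most genes keep their level. The erythroid marker genes of K562 were detected, 11 of 11, and all fell, from a summed level of 7237 to 7422 CPM in DMSO to 3587 to 3787 CPM in treated libraries. Of 9 lymphoid markers 2 passed the count filter (sum 7.99 to 9.36 CPM in DMSO and 9.91 to 11.6 CPM in treated libraries), and CD2 and MS4A1 were at 0. Of 9 fibroblast and endothelial markers 3 passed (10.4 to 14 and 7.0 to 11.7 CPM), and LUM and CDH5 were at 0. Of 7 epithelial markers EPCAM and KRT19 passed (212 to 216 and 119 to 125 CPM), and KRT5 and KRT14 were at 0. The part of these shifts in the results on histone variants was not tested.

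Transcripts of H2AFX and H3F3B were lower in treated cells, those of H2AFV and H2AFY were 8.45% and 6.94% lower, and no change passed the test for CENPA, H1FX or H2AFZ. Of the 10 members 7 passed the count filter, and of these 4 fell (H2AFX, H3F3B, H2AFV and H2AFY), none rose, and 3 did not pass the test (H2AFZ, H1FX and CENPA), by edgeR's quasi-likelihood method, with p-values adjusted by Benjamini-Hochberg over all 12339 tested genes. Among all tested genes 32.7% were called lower and 33.8% higher. With libraries scaled by total counts, 25.8% were called lower and 41.0% higher, and 2 members, H2AFX and H3F3B, were called lower. The CPM values of 5 of the 7 members did not overlap between the groups, against 70.0% of all tested genes. The median log2 fold change of the 7 was -0.10 beside 0.01 over all tested genes. The summed level of the 10 members lay between 2038 and 2062 CPM in DMSO and between 1786 and 1860 CPM in treated libraries. In these bulk libraries, fewer cells with a transcript and less of it per cell cannot be told apart.

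**Figure D1:**
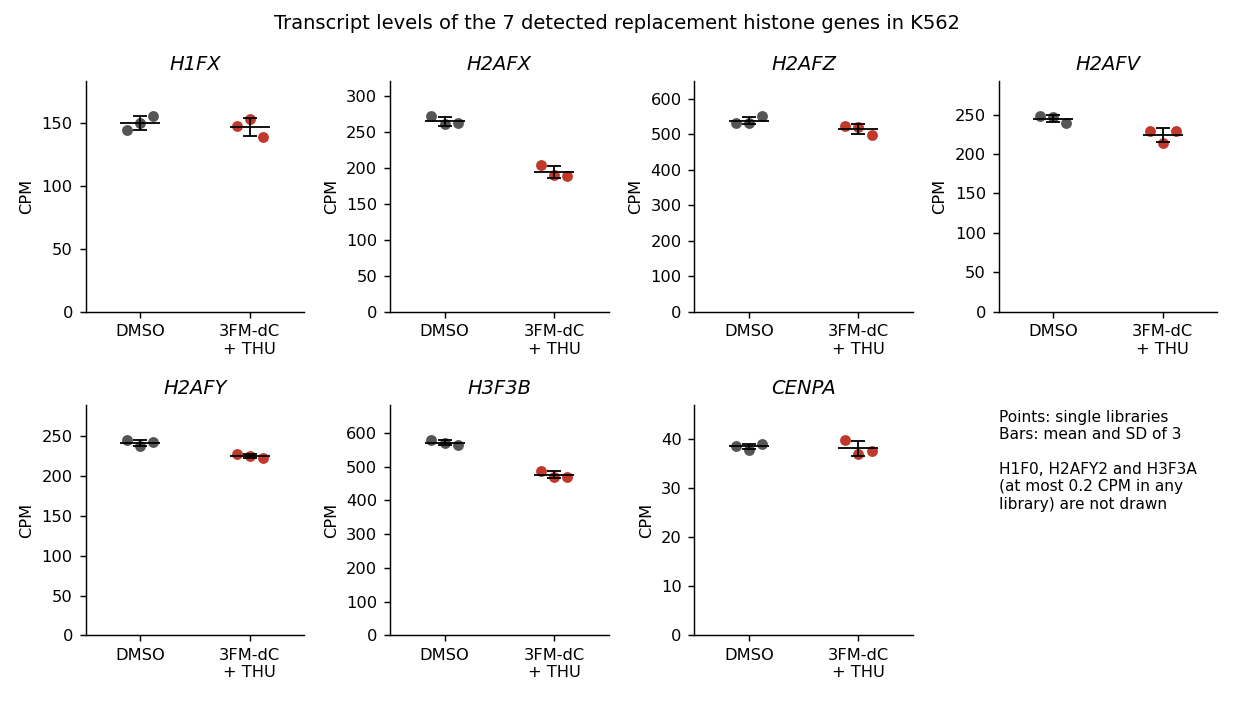
Level of each of the 7 detected members in CPM (TMM-scaled, vertical axes from 0) in the 3 DMSO libraries (grey) and the 3 libraries given 3FM-dC plus THU (red), with the mean and SD of each group as black bars. The groups stand apart most clearly for H2AFX (265 against 195 CPM) and H3F3B (571 against 475 CPM) and overlap for H1FX and CENPA.

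H2AFX encodes H2A.X, the H2A form whose tail is phosphorylated around DNA double-strand breaks. It had 272, 261 and 262 CPM in DMSO replicates 1, 2 and 3 and 204, 191 and 189 CPM in treated replicates 1, 2 and 3. All 3 treated libraries lay below all 3 DMSO libraries, and the gap between the groups was wider than the spread within either. The mean went from 265 ± 6.07 to 195 ± 8.42 CPM (SD, n = 3 per group), a level 26.6% lower (log2 fold change -0.45, SE 0.04, edgeR adjusted p = 7.28e-11). Of all tested genes, 14.7% had a lower log2 fold change. The call stood under all 13 other settings, with adjusted p between 5.19e-29 and 3.39e-05, and the smallest change was -0.36 with total counts.

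H2AFX is the member that shares a feature with the replication-dependent genes. A search of the GENCODE release 29 transcripts of the 10 members for the conserved histone stem-loop of 16 bases found it in H2AFX alone. It was also found in 31 of 66 replication-dependent genes with a coding transcript in that annotation. The search used a fixed pattern of letters on transcripts as annotated. A gene without a match, such as HIST1H1C, therefore cannot be said to lack the stem-loop. In H2AFX it begins 49 bases past the stop codon, and the annotated transcript goes on for 1044 bases after it. It is printed with 5 bases on either side beside that of HIST1H2AC, the called replication-dependent H2A gene with the highest CPM, and of HIST1H3H, an H3 gene, with the stem-loop in capitals.
H2AFX: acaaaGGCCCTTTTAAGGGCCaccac
HIST1H2AC: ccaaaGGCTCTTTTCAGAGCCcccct
HIST1H3H: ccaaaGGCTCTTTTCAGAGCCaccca
The counts do not separate H2AFX messages that end at the stem-loop from those that run on, and how well the library kit captured either was not tested.

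Ratios of 2 genes within the same library do not depend on how libraries are scaled. The ratio of H2AFX to H2AFZ counts was 0.510, 0.490 and 0.476 in DMSO and 0.390, 0.366 and 0.379 in treated libraries, without overlap between the groups (log2 difference of the ratio -0.38). The exact two-sided permutation test gave p = 0.1, the smallest value that 3 against 3 libraries allow, and 0.14 after adjustment over the 7 ratios computed. Against the summed replication-dependent H2A genes, H2AFX had a ratio of 1.66, 1.52 and 1.62 in DMSO and 1.75, 1.69 and 1.65 in treated libraries. These groups overlapped, and the difference was 0.09 on the log2 scale (exact permutation p = 0.2, adjusted 0.233). Both ratios of H2AFX were added after its values had been seen.

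H2AFZ and H2AFV encode H2A.Z.1 and H2A.Z.2, near-identical H2A.Z proteins from separate genes. H2AFZ had 534, 533 and 552 CPM in DMSO and 524, 521 and 498 CPM in treated libraries. All treated libraries lay below the DMSO ones, by less than the range within either group. The log2 fold change was -0.07 (SE 0.03, edgeR adjusted p = 0.0752). A 95% interval from a normal quantile of 1.96 ran from -0.13 to -0.0024. That interval is narrower than the edgeR test implies, so no change of H2AFZ can be read from it. H2AFZ passed the threshold without treated replicate 1 (0.0366), without treated replicate 2 (0.0232) and with no count filter (0.0346), over a range of 0.0232 to 1.0, and with total counts its change was 0.02. H2AFV had 248, 247 and 239 CPM in DMSO and 229, 214 and 229 CPM in treated libraries, again without overlap. It fell by 0.13 on the log2 scale (SE 0.04, edgeR adjusted p = 0.00544). That call was lost with total counts (0.398) and against a minimum fold change of 1.2 (1.0), over a range of 0.00108 to 1.0.

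The balance of these H2A.Z genes was not shown to move. The count ratio of H2AFZ to H2AFV was 2.15, 2.16 and 2.30 in DMSO and 2.29, 2.43 and 2.18 in treated libraries. The groups overlapped, with a difference of 0.06 on the log2 scale (exact permutation p = 0.3).

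H2AFY and H2AFY2 encode macroH2A1 and macroH2A2, H2A variants with a large additional macrodomain. H2AFY had 245, 237 and 242 CPM in DMSO and 227, 225 and 222 CPM in treated libraries, and the groups did not overlap. It fell by 0.10 on the log2 scale (SE 0.04, edgeR adjusted p = 0.0157), to a level 6.94% lower. The call was lost without DMSO replicate 1 (0.0629), without treated replicate 3 (0.0641), with a filter at a mean of 5 CPM (0.129), with total counts (0.772) and against a minimum fold change of 1.2 (1.0), over a range of 0.00749 to 1.0. H2AFY2 had 1, 0 and 4 counts in DMSO and 0, 1 and 4 counts in treated libraries, around or below the level of 3 counts per library. It was not tested, and no ratio of the macroH2A genes was computed. The counts are per gene and do not separate the alternatively spliced macroH2A1.1 and macroH2A1.2 forms.

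H3F3B and H3F3A each encode the H3.3 protein. H3F3B had 579, 571 and 563 CPM in DMSO and 487, 469 and 470 CPM in treated libraries. The lowest DMSO library lay well above the highest treated one. The mean went from 571 ± 8.0 to 475 ± 10.2 CPM (SD, n = 3 per group), 16.7% lower (log2 fold change -0.26, SE 0.03, edgeR adjusted p = 5.43e-08). The change was -0.17 with total counts and was called under 12 of 13 other settings, all but the test against a minimum fold change of 1.2, with edgeR or DESeq2 adjusted p between 1.04e-14 and 0.431.

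H3F3A, by contrast, was listed with 0 counts in 5 libraries and 1 count in treated replicate 2. A floor of 3 counts would be between 0.0242% and 0.0316% of the H3F3B count of the same library. No change of H3F3A and no ratio to H3F3B can be drawn from these values. In GENCODE release 29 both genes have a coding sequence of 411 bases that gives the same 136 residues, with 0 different residues, while 88 of the 411 bases differ. The pseudogene H3F3AP4 matches H3F3A over all 411 bases, and H3F3AP6 differs from it at 3 of them. The first 90 coding bases of each gene are printed to show this, with the bases that differ between H3F3A and H3F3B in capitals in these 2 lines and with any base that differs from H3F3A in capitals in the others.
H3F3A: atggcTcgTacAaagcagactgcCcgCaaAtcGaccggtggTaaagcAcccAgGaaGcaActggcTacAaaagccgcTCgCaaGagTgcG
H3F3B: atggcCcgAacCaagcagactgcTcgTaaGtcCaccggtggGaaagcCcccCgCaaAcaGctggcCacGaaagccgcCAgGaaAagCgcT
H3F3AP4: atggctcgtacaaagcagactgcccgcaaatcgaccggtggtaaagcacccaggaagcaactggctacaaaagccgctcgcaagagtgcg
H3F3AP6: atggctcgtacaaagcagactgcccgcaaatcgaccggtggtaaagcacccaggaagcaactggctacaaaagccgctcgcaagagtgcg
H3F3A and H3F3B differ at 21 of these 90 bases, and H3F3AP4 and H3F3AP6 each differ from H3F3A at 0. A read from this stretch of H3F3A is therefore told apart from H3F3B but not from H3F3AP4 or H3F3AP6. H3F3AP4 was also listed at 0 in all 6 libraries. Words of 50 bases from all H3F3A transcripts occurred in transcripts of other genes in 11.7% of cases, all of them pseudogenes.

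A listing near 0 was not particular to H3F3A. H1F0, which has no 50-base word in common with any other gene of that annotation, had 0, 0 and 1 counts in DMSO and 2, 0 and 1 counts in treated libraries. RPL21, a ribosomal protein gene that every cell uses and that was looked up after these zeros were seen, was at 0 in all 6 libraries. A total of 496284 to 623600 reads per library was deposited as ambiguous, with no gene named. Whether reads of H3F3A, H1F0 or RPL21 are among them was not tested, and values near 0 for these symbols cannot be read as absence of the transcript. The authors' deposited table, which names its groups only A and B, lists a ratio of B over A of 3.25 for H1F0 with an adjusted p of 0.984, and the count tables hold 4 counts of H1F0 in all.

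CENPA encodes the H3 variant of centromeric nucleosomes, and its transcript is known to peak in G2 and M phase. It had 38.6, 37.8 and 38.9 CPM in DMSO and 39.8, 37.0 and 37.5 CPM in treated libraries. The groups overlapped, the highest and the lowest values both being treated libraries. The log2 fold change was -0.02 (SE 0.07, edgeR adjusted p = 0.850), with a 95% interval, by the normal quantile, from -0.14 to 0.11. With total counts it was 0.08. Relative to H3F3A plus H3F3B, in effect to H3F3B, CENPA counts made a ratio of 0.0667, 0.0663 and 0.0692 in DMSO and 0.0817, 0.0789 and 0.0797 in treated libraries. These groups did not overlap, and the ratio was 1.19-fold higher in treated libraries (exact permutation p = 0.1, adjusted 0.14). Of 19 tested G2 and M phase genes 14 fell and 3 rose (median log2 fold change -0.28), or 11 and 4 with total counts. Of 19 S phase genes 16 fell and 2 rose (median -0.37), or 13 and 3 with total counts. Among all tested genes 32.7% fell and 33.8% rose, or 25.8% and 41.0% with total counts. The part of cell cycle phase in the values of CENPA and H2AFX was not tested.

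The linker histone gene H1FX, which encodes H1.10, had 145, 150 and 156 CPM in DMSO and 148, 154 and 139 CPM in treated libraries. The groups overlapped over most of their range. Its log2 fold change was -0.03 (SE 0.05, edgeR adjusted p = 0.540) and was 0.06 with total counts. The 95% interval of the former, by the normal quantile, ran from -0.12 to 0.06. In GENCODE release 29 the antisense gene H1FX-AS1 covers 22.9% of the exonic bases of H1FX on the other strand. Likewise on the other strand, C5orf66 covers 28.0% of those of H2AFY and AC097460.1 covers 9.68% of those of H2AFZ. No source used here gives the strand setting of the counting, so reads of such partners cannot be told apart. SLC35F6 covers 6.96% of the exonic bases of CENPA on the same strand, which no strand setting would separate. H1FX-AS1 itself was listed with 4 to 18 counts per library.

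**Figure D2:**
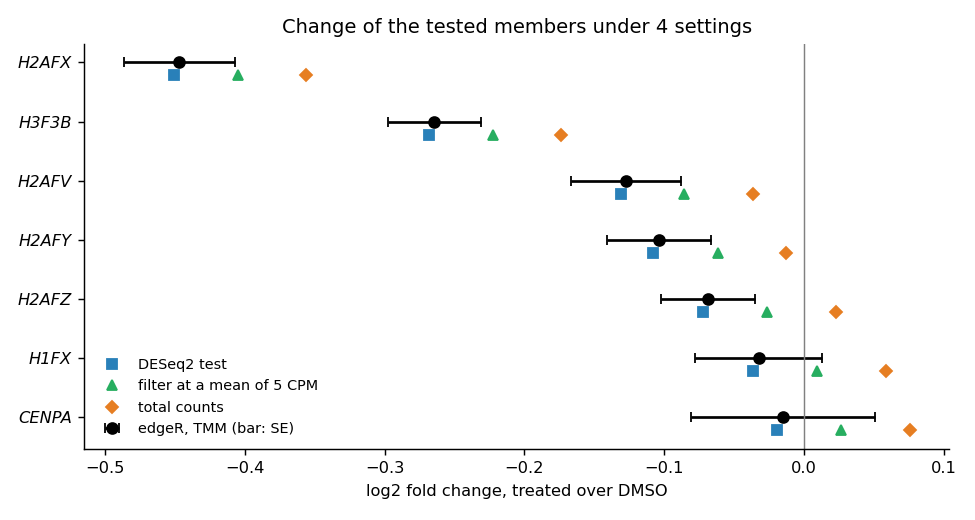
Log2 fold change (treated over DMSO, horizontal axis) of the 7 tested members by edgeR with TMM scaling (black, bars show the SE), and by DESeq2 (blue), with a filter at a mean of 5 CPM (green) and with libraries scaled by total counts (orange). H2AFX, H3F3B, H2AFV and H2AFY lie below 0 under all 4. With total counts H2AFZ turns from -0.07 to 0.02, CENPA from -0.02 to 0.08 and H1FX from -0.03 to 0.06.

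The authors' deposited table does not say which of its groups A and B was treated. The ratio of B over A in the authors' deposited table was 0.727 for H2AFX, 0.824 for H3F3B, 0.906 for H2AFV, 0.921 for H2AFY, 0.944 for H2AFZ, 0.969 for H1FX and 0.980 for CENPA. The adjusted p in the authors' deposited table was 0.0547 for H2AFZ and 0.0170 for H2AFY.

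Levels were set against each other per kilobase of the longest coding transcript in GENCODE release 29. In DMSO the order was H2AFZ (551 ± 10.7 CPM per kb), H3F3B (211 ± 2.96), H2AFX (164 ± 3.76), H1FX (99.7 ± 3.55), H2AFY (86.6 ± 1.44), H2AFV (64.4 ± 1.26) and CENPA (26.5 ± 0.393). The same order held in treated libraries, where H2AFX had 121 ± 5.22 and H1FX 97.5 ± 4.81 CPM per kb. No neighbours in this order overlapped over their 3 libraries, in either group. The order rests on the length used: per kilobase of all annotated exons, H2AFX (164 ± 3.76 in DMSO) and H1FX (99.7 ± 3.55) came before H3F3B (93.1 ± 1.30), and H2AFY came last (13.6 ± 0.226).

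Promoters of the 3 members that fell and hold the most CCAAT boxes are printed from RefSeq (GRCh38.p14), each on the minus strand, from 250 bases before to 50 after the annotated start. RefSeq promoters were matched for 9 of the 10 members, all but H1F0. CCAAT, the box bound by NF-Y, is known from many histone promoters, and CCAAT and its reverse complement ATTGG are in capitals.
H2AFX promoter, chr11:119095416-119095715: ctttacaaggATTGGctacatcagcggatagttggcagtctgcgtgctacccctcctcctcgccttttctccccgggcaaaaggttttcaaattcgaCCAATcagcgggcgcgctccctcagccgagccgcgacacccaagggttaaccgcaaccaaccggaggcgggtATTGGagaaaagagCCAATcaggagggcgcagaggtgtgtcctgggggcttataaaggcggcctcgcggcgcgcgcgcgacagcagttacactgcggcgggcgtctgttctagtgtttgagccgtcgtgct
H3F3B promoter, chr17:75779730-75780029: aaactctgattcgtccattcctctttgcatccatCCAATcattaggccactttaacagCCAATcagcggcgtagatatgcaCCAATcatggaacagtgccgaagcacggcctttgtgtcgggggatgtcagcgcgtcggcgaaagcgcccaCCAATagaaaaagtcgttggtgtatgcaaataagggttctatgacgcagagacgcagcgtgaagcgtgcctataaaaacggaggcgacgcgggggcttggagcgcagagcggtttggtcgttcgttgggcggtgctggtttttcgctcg
H2AFV promoter, chr7:44848038-44848337: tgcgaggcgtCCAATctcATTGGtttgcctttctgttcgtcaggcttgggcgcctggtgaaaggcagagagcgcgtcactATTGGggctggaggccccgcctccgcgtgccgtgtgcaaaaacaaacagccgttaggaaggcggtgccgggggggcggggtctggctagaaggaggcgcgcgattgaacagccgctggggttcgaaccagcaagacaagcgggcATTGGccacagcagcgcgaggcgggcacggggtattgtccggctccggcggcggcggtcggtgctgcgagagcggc
These 3 windows hold 4 matches each, counted on both strands, H2AFZ holds 3, CENPA 2, H3F3A 1 and H1FX, H2AFY and H2AFY2 none. Among 27305 RefSeq promoters of the same length, 35.7% hold at least 1 match and 1.06% at least 4. The log2 fold change was -0.45, -0.26 and -0.13 for H2AFX, H3F3B and H2AFV, -0.07 for H2AFZ, -0.02 for CENPA, -0.03 for H1FX and -0.10 for H2AFY, and a relation to the number of matches was not tested. TATAAA occurred in H1FX, H2AFX, H2AFZ and H3F3B (12% of all promoters), and TTTGAA, the core of the cell cycle element CHR, in H2AFX, H2AFZ and CENPA (15.4%). TGATGNAA, the form bound by ATF4 with C/EBP factors, was found in none of the 9 windows and in 3.67% of all promoters. GGGCGG, the GC box, was in H2AFZ, H2AFV, H2AFY, H3F3A, H3F3B and CENPA (44.6% of all promoters). Both strands were searched for each motif and overlapping matches were counted separately. A match describes the letters in the window and no binding.

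The replication-dependent histone genes are the counterpart of the members. Of 68 such symbols 37 were tested, of which 22 fell and 1 rose, against 32.7% lower and 33.8% higher among all tested genes. Their median log2 fold change was -0.72 beside -0.10 for the members. Under total counts 18 fell and 1 rose. With the filter at a mean of 5 CPM, which takes genes of low level such as HIST1H1D out of testing, 13 fell. The one that rose, HIST1H4H (log2 fold change 0.29), lost its call without DMSO replicate 2, without DMSO replicate 3, without treated replicate 2, with no count filter and against a minimum fold change of 1.2 (edgeR adjusted p between 0.00434 and 0.367 over all settings). Their summed level was 2626 to 2668 CPM in DMSO and 1257 to 1328 CPM in treated libraries. The linker gene HIST1H1C fell by 1.28 on the log2 scale (edgeR adjusted p = 2.60e-23), HIST1H2AC by 0.55 and HIST1H3H by 0.93. Near-identical genes of these clusters can share reads, which makes single values uncertain.

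Within each library the reads of replacement genes were set against those of the replication-dependent genes of the same histone type. For H1, the ratio of H1F0 plus H1FX to the replication-dependent genes was 0.134, 0.143 and 0.143 in DMSO and 0.337, 0.356 and 0.307 in treated libraries, 2.38-fold higher. For H2A, the 5 members together were 7.92, 7.45 and 8.01 times the replication-dependent genes in DMSO and 10.2, 10.2 and 9.96 times in treated libraries, 1.30-fold higher. For H3, the ratio was 12.7, 13.0 and 12.9 in DMSO and 22.4, 22.6 and 17.3 in treated libraries, 1.60-fold higher, with treated replicate 3 apart from the other two. None of these 3 ratios overlapped between the groups (exact permutation p = 0.1 each, the smallest possible, and 0.14 adjusted over the 7 ratios). With H3F3A and H1F0 listed near 0, the H3 and H1 ratios are those of H3F3B plus CENPA and of H1FX. HIST1H1C held 98.8% to 99.3% of the replication-dependent H1 counts, so the H1 ratio is in effect that of H1FX to HIST1H1C. Since capture of transcripts without a poly-A tail was not tested, the ratios describe reads and not the amounts of histone messages.

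**Figure D3:**
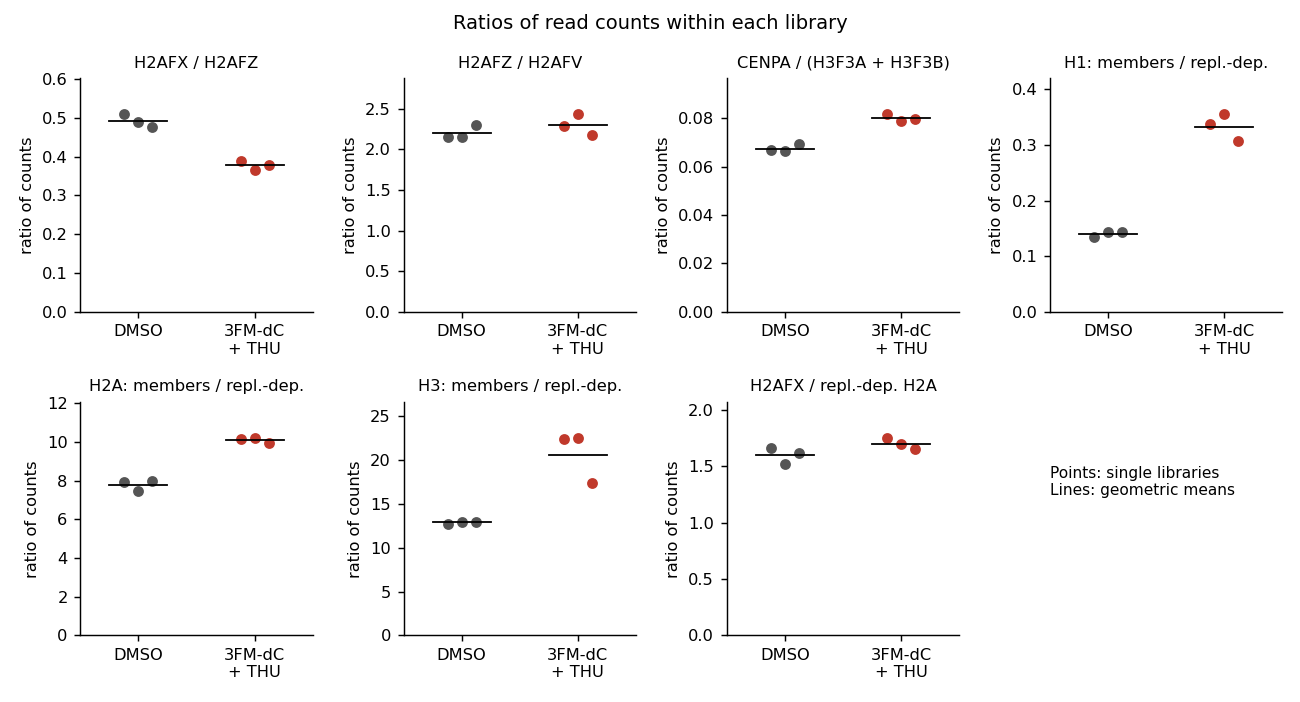
Ratios of read counts within each library (vertical axes from 0, points are the 3 libraries of each group, lines are geometric means). H2AFX loses against H2AFZ (about 0.49 to 0.38) and overlaps between groups against the replication-dependent (repl.-dep.) H2A genes, while the members gain on the replication-dependent genes for H1, H2A and H3.

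Genes that load and exchange the variants went both ways. Of 90 genes on the 7 partner lists 87 were tested, and 41 fell and 21 rose. With total counts 30 fell and 29 rose, and with a minimum fold change of 1.2 17 fell and 5 rose. The counts of this and the following lists stand beside 32.7% lower and 33.8% higher among all tested genes, and no list was tested against these shares. Among the 8 H3.3 chaperone genes 4 fell and 2 rose (median log2 fold change -0.12), and 2 fell with total counts. HIRA, the core of the complex that deposits H3.3 at active genes, fell from 405 ± 2.52 to 346 ± 4.88 CPM (edgeR adjusted p = 1.16e-06), and DAXX, which loads H3.3 at repeats, from 146 ± 0.905 to 131 ± 2.27 CPM. The DAXX call was lost with total counts (edgeR adjusted p = 0.151), and those of DAXX, HIRA and UBN2 against a minimum fold change of 1.2, as were those of SRCAP, MDC1 and CHAF1A in the next paragraphs. Its partner ATRX had 56.2 ± 3.72 and 52.0 ± 1.5 CPM (edgeR adjusted p = 0.113). ASF1A, which hands H3.3 to HIRA, fell by 0.48 on the log2 scale, and UBN2, a subunit of the HIRA complex, rose by 0.30.

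Of 21 H2A.Z exchange genes 11 fell and 6 rose (median -0.15), or 9 and 8 with total counts (median -0.06). ANP32E, the chaperone that removes H2A.Z, fell from 329 ± 7.34 to 231 ± 8.92 CPM (edgeR adjusted p = 1.71e-12). The ATPase genes of the 2 depositing complexes moved in opposite directions: SRCAP fell by 0.19 and EP400 rose by 0.35 on the log2 scale. ACTR6, a subunit of the SRCAP complex, fell by 0.72.

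Of 8 genes for CENP-A loading 5 fell and 1 rose (median -0.18), and 3 fell with total counts. The one that rose was HJURP, the chaperone of CENP-A, from 65.1 ± 1.71 to 75.3 ± 7.58 CPM (edgeR adjusted p = 0.00380). That call was lost without treated replicate 1 (0.0697) and against a minimum fold change of 1.2 (0.836), over a range of 5.27e-05 to 0.836. Of 16 inner kinetochore genes 3 fell and 5 rose (median 0.04), with 8 rising under total counts and 3 without treated replicate 2. Among them were STRA13, here the symbol of CENP-X, which fell by 1.10, and MLF1IP, the symbol of CENP-U, which rose by 0.56 on the log2 scale.

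Of 12 tested genes that phosphorylate H2A.X, remove the mark or read it, 6 fell and 3 rose (median -0.07). With total counts 3 fell and the median was 0.02. MDC1, the main reader of phosphorylated H2A.X, rose by 0.27 and the kinase gene ATR fell by 0.37 on the log2 scale. Of 8 macroH2A partner genes 3 fell and 1 rose (median -0.04, and 0.05 with total counts), and PARP1, whose product binds macroH2A, fell by 0.46. Of 14 replication-coupled and general histone chaperone genes 9 fell and 3 rose (median -0.25), with 5 rising under total counts, and CHAF1A, the large subunit of CAF-1, fell from 143 ± 0.110 to 119 ± 4.34 CPM.

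**Figure D4:**
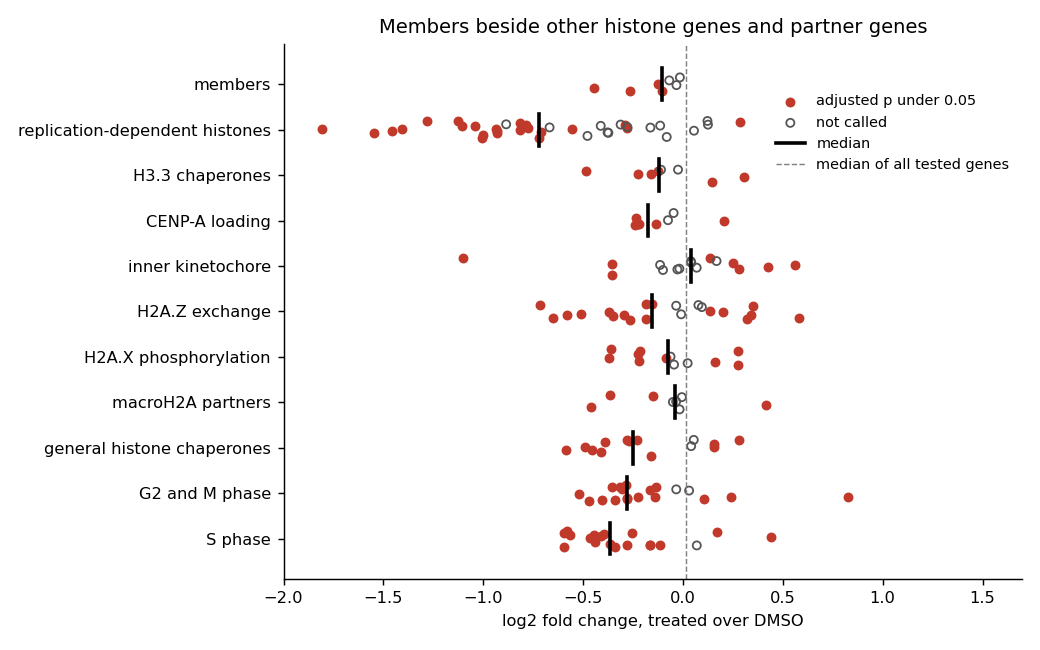
Log2 fold change (treated over DMSO, horizontal axis) of every tested gene of the members, the replication-dependent histone genes, the 7 partner lists and the 2 cell cycle lists, filled red where the edgeR adjusted p was under 0.05, with the median of each list as a black bar and that of all tested genes as a dashed line. The members lie between -0.45 and -0.02, while the replication-dependent genes have a median of -0.72.

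No other non-canonical histone gene could be followed. Of 14 such genes, among them H2AFJ, H3F3C and the germline forms, none passed the count filter, and their summed level lay between 0.224 and 0.667 CPM over the 6 libraries. H2AFJ, which encodes H2A.J, had at most 2 counts in any library.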

How the data were processed

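Raw read counts per gene symbol were used as the authors deposited them, 1 file for each of 6 libraries. STAR, Cufflinks, DESeq2 and hg19 are named without roles per the submitters' processing notes, while the counting program, strand setting and annotation were not given in any source used here. Unassigned reads (10.9% to 13.1% in no feature, 2.27% to 2.38% ambiguous) were left out. The fold ratio and p-value of each member were read from the authors' deposited table for comparison only.

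Testing used edgeR 4.0.16 in R 4.3.3 (quasi-likelihood), with TMM scaling and filterByExpr at a minimum count of 10, which kept 12339 genes. P-values were two-sided and Benjamini-Hochberg adjusted, with 0.05 as threshold. DESeq2 1.42.0 was among 13 other settings. The fit was tested on simulated data in which few genes changed, as many up as down. In the real data 66.4% of tested genes were called, so the simulation did not try the assumption behind TMM scaling. Ratios needed at least 10 counts on each side in every library, and 7 of 10 could be computed. Replicate pairs differed beyond counting noise (chi-square per degree of freedom 2.38 to 6.22). Coordinates are only those of RefSeq promoters (GRCh38.p14), since the files' build was hg19.

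Members and lists were chosen with earlier results of these data known. All 10 members were named, with 9 partner genes fixed by name and, in each list, up to 3 called genes with the smallest p or, where at most 3, those against the list's main direction. Of these, a selection is described.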

Additional observations from a re-analysis of the deposited data

How the results depend on the processing

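No member was called higher under any of the 14 settings (main and 13 others), and H2AFX was called lower under all of them. The number of members called lower was 4, against 2 with total counts and 1 with a minimum fold change of 1.2, which also gave 2641 genes higher and 2124 lower in all and 5 and 17 on the partner lists (main: 4167, 4031, 21 and 41). Total counts moved the median log2 fold change of all genes by 0.0912, from 0.01 to 0.10. That is about the size of the changes of H2AFV and H2AFY, so the direction of small changes depends on the scaling. On the partner lists total counts gave 29 genes higher and 30 lower. Signs turned for uncalled members: with total counts to 0.059 for H1FX, 0.023 for H2AFZ and 0.076 for CENPA, and with the 5 CPM filter to 0.0094 for H1FX and 0.026 for CENPA. Leaving out 1 library at a time, H1FX ranged from -0.067 to 0.0036 and CENPA from -0.051 to 0.0042, and 3 to 5 members were called lower. The replicate block gave 4 members lower and, in all, 4091 genes higher and 3959 lower. Same-numbered libraries did not deviate together (correlations -0.0088, -0.0067 and -0.0661), so the numbers were not taken as pairs. All 7 ratios kept their direction with 0.5 added to each count, with the block and without each library. The 95% intervals of log2 fold changes used a normal quantile of 1.96, so they are narrower than the edgeR test implies. For H1F0, H2AFY2 and H3F3A, listed near 0 counts, no change could be given, and why they were near 0 was not tested.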
